A study of Mus musculus with 24 samples.

Results

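Fos, Fosb, Fosl2, Jun, Junb and Jund encode the FOS and JUN subunits of the transcription factor AP-1. They were chosen by name, and all 6 had a row in each of the 4 deposited expression tables, among 14323 to 14489 genes per table. In cortex 1 day after a stroke model, Jun rose in PI against CL tissue in both genotypes, by 35.1% in wild type and 34.1% in knockout animals. Fosl2 fell in PI tissue of the knockout, to 0.610 of its CL level, and no other FOS or JUN gene passed the test in any comparison. Between genotypes none of the 6 passed the test, while Fos, Fosb and Junb stood higher in the knockout in both tissue samples, at 1.28 to 1.70 times the wild type level, with a lowest adjusted p of 0.490.

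Libraries of ribosome-depleted total RNA were made from the cortex of male mice, 3 to 4 months old. All animals, wild type included, had undergone transient occlusion of the middle cerebral artery (tMCAo), in which a filament blocks the artery for 1 h and is then withdrawn, and were sampled after 1 day of reperfusion, so no group came from animals without surgery. The genotypes are WT and ciRS-7 KO, where ciRS-7 is the circular RNA also called Cdr1as, and the labels give the strain C57BL/6N-Cdr1asem1Nikr for every animal, WT included. Each of the 12 animals gave a CL and a PI library, marks that the labels do not spell out, so there were 4 groups of 6 libraries: CL and PI of WT, and CL and PI of KO.

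AP-1 is a family of dimers in which a JUN protein pairs with a FOS protein, with another JUN or with a relative of the ATF and MAF families through a leucine zipper. FOS proteins need a partner, whereas JUN proteins can also pair with each other. In brain, Fos, Fosb and Junb are classical immediate early genes, switched on briefly by synaptic activity, calcium and growth factors through the factors SRF, ELK1 and CREB, while Jun is activated by the JNK kinases under stress and Jund is made more steadily.

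The 250 bases before the RefSeq start site (mouse build GRCm38.p6) are printed for Jun, which rose in PI, and for Fos, Fosb and Junb, which stood higher in the knockout, 5′ to 3′ on the gene's strand, with every motif match in capitals. The Jun window lies at chr4:95052223-95052472 on the minus strand, where TGACATCA, a known element of this promoter that binds JUN and ATF dimers, begins 45 bases before the start, and CCGCCC, the reverse of the GC box GGGCGG, lies upstream of it. The Fos window lies at chr12:85473640-85473889 on the plus strand. The Fosb window lies at chr7:19310046-19310295 and the Junb window at chr8:84978749-84978998, both on the minus strand.
Jun: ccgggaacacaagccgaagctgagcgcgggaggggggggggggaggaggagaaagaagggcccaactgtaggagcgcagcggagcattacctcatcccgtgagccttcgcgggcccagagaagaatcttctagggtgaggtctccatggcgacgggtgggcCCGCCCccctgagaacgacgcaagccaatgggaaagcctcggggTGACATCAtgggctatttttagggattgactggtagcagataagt
Fos: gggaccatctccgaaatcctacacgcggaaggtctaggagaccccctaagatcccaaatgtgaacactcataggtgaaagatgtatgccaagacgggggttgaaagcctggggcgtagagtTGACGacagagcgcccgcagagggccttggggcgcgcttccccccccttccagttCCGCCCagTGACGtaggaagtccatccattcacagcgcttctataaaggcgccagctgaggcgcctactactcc
Fosb: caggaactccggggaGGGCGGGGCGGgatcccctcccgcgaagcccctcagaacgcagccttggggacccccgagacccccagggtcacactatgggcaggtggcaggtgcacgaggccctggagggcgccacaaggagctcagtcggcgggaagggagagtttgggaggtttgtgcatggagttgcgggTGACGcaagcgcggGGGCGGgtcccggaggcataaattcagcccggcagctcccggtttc
Junb: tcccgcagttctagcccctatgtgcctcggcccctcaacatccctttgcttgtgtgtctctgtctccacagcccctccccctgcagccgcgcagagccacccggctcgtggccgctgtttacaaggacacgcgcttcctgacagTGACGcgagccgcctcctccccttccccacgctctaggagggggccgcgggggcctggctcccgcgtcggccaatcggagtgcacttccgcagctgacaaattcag
Fos, Fosb and Junb each hold TGACG, the first letters of the cyclic AMP element TGACGTCA bound by CREB. The match nearest the start begins 66 bases before it in Fos, 60 in Fosb and 106 in Junb, and Fos holds another that begins at 129. TGACG was added to the search after these sequences had been seen, and 17.8% of 32851 RefSeq promoter windows of this length hold it on either strand. TGACATCA was found in 2.93% of windows and in Jun alone of the 6 genes. The GC box was found in 32.7% of windows and in Fos, Fosb, Fosl2 and Jun. The AP-1 site TGANTCA (6.75% of windows), the full TGACGTCA (1.55%) and the CArG box bound by SRF (1.47%) were in none of the 6 windows. Sites further than 250 bases before the start were not searched, so a promoter without a match here may hold one upstream. A match is a description of letters only. The RefSeq start site of Fosl2 lies 671 bases from the GENCODE gene start and that of Jund 1210 bases. Their windows may therefore lie away from the start used in these cells, and neither is printed.

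In GENCODE M21 on GRCm38, Fos (ENSMUSG00000021250.13) lies on chromosome 12 from 85473890 to 85477273 on the plus strand. Fosb (ENSMUSG00000003545.3) lies on chromosome 7 from 19302696 to 19310051 on the minus strand, and Fosl2 (ENSMUSG00000029135.10) on chromosome 5 from 32135801 to 32157842 on the plus strand. Each of these FOS genes has 4 exons in its principal transcript, and the JUN genes have 1 exon and no intron. Jun (ENSMUSG00000052684.4) lies on chromosome 4 from 95049034 to 95052222 on the minus strand, Junb (ENSMUSG00000052837.6) on chromosome 8 from 84974484 to 84978718 on the minus strand, and Jund (ENSMUSG00000071076.6) on chromosome 8 from 70698949 to 70700616 on the plus strand. Jun overlaps the antisense gene Junos and Jund the antisense gene Gm11175, and the Junb gene model runs into Prdx2, though its principal transcript does not. Whether the authors' counting used strand is not given in the sources used here, so for Jun and Jund the reads of the gene and of its antisense partner cannot be told apart.

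The values are log2 CPM, which express a gene's reads as a share of its library on the log2 scale. Within each group of 6, the 2 lowest values of a gene are always equal and so are the 2 highest, because extreme values had been moved to the quartiles. The lowest and highest values given here for a gene are therefore the lower and upper quartile of 6 libraries. For a gene, "did not overlap" compares these ranges. The most extreme libraries of a group are not known, so no count of animals that rose or fell is given. Fold changes are differences of trimmed means, the mean of the 4 inner values that can be solved from the deposited ones, each with its standard error (SE) and n = 6 libraries per group. A gene is called at an adjusted p under 0.05 by the moderated trimmed-mean test, made with limma and adjusted by Benjamini-Hochberg over all genes of a table. Depth, read from the steps between low values, ran from 3.76 to 10.5 megareads with a median of 6.91. The shallowest library was CL KO replicate 6, and the others held at least 5.295 megareads. The targeted Cdr1as stood at 11.75 to 11.89 log2 CPM in CL WT against -7.97 to -4.06 in CL KO, and at 11.35 to 11.52 in PI WT against -9.97 to -2.59 in PI KO. All 14 neuron markers searched were listed in each table.

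Per kilobase of principal transcript, so that genes can be compared, Jund had the highest level in every group, at 15.8 CPM per kb in CL and 15.9 in PI of WT, and 16.2 in CL and 15.2 in PI of KO. Fosb had the lowest, from 0.942 in PI WT to 2.30 in CL KO. The order in CL WT was Jund, Junb (10.3), Jun (9.82), Fos (6.66), Fosl2 (3.90) and Fosb (1.51), where the quartile ranges of Junb and Jun overlapped and the other neighbours did not. In PI WT Jun, at 13.3 CPM per kb, stood above Junb at 9.67 with no overlap. In CL KO Fos, at 11.3, stood above Jun at 8.77, and the ranges of Jund and Junb (14.9) overlapped. In PI KO Junb (12.3) and Jun (11.8) overlapped, followed by Fos (8.54), Fosl2 (2.91) and Fosb (1.31). The reads behind a value ran from 20.03 to 105 for Fosb, 60.3 to 253 for Fos, 90.1 to 346 for Fosl2, 97.5 to 423 for Jun, 92.8 to 264 for Junb and 113 to 267 for Jund, so counting error weighs most on Fosb.

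Of the 6 genes, 1 was called between PI and CL in WT, where 10.6% of all genes were called and 5.2% rose, and 2 were called in KO, where 10% of all genes were called, 5.11% higher and 4.94% lower. The median log2 fold change of the 6 was -0.16 in WT and -0.34 in KO, against 0.01 and -0.000678 over all genes. The tissue is bulk cortex, in which fewer cells of a type and less RNA per cell cannot be told apart.

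Fos, the founding member of the family, had lowest, median and highest values of 3.55, 3.84 and 4.05 log2 CPM in CL WT and 3.28, 3.64 and 3.72 in PI WT. In the table of KO samples it had 4.30, 4.66 and 4.75 in CL and 3.79, 4.25 and 4.47 in PI. The quartile ranges of PI and CL overlapped in both genotypes. The log2 fold change of Fos was -0.26 (SE 0.19, adjusted p = 0.453) in WT and -0.40 (SE 0.22, adjusted p = 0.289) in KO, with 95% intervals from -0.68 to 0.15 and from -0.88 to 0.08.

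Fosb, whose truncated splice form ΔFosB builds up under lasting activity, had the lowest levels. It stood at 2.28, 2.53 and 2.73 log2 CPM in CL WT against 1.69, 1.77 and 2.04 in PI WT. In KO the values were 2.91, 3.10 and 3.34 in CL against 1.89, 2.41 and 2.63 in PI. PI libraries were the low ones in both genotypes and the ranges did not overlap. The log2 fold change was -0.68 (SE 0.20) in WT, with a 95% interval from -1.12 to -0.24, and -0.81 (SE 0.25) in KO, with an interval from -1.35 to -0.26. With adjusted p of 0.0506 in WT and 0.0621 in KO it missed the threshold in both. In WT it passed with the median as the centre of a group (adjusted p = 0.0312), on log2(CPM + 1) (0.0498), among genes of at least 1 CPM (0.0494) and after centring on the median gene (0.0468), and without a trend in the prior variance it lay further from the threshold (0.0769). In KO it passed under none of these alternatives, with adjusted p from 0.0557 on log2(CPM + 1) to 0.134 without a trend. The table does not separate the splice forms.

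Fosl2, which encodes the FOS-related antigen FRA-2, had 4.55, 4.69 and 4.78 log2 CPM in CL WT and 4.29, 4.48 and 4.59 in PI WT, ranges that overlapped. In KO it had 4.86, 4.96 and 5.07 in CL and 4.05, 4.22 and 4.48 in PI, with no overlap. The log2 fold change was -0.22 (SE 0.11, adjusted p = 0.271) in WT. In KO the fall was called, with a log2 fold change of -0.71 (SE 0.14, adjusted p = 0.00626). The interaction of tissue mark and genotype, which tests whether the KO and WT changes differ, was -0.49 (SE 0.19, 95% interval -0.89 to -0.10, unadjusted p = 0.0173). It did not pass adjustment over 14211 genes (adjusted p = 0.992), so the fall of Fosl2 in KO was not shown to differ from the change in WT.

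Jun, the JUN subunit with the strongest drive to transcription, was the gene that rose. It stood at 4.93, 4.98 and 4.999 log2 CPM in CL WT and at 5.32, 5.37 and 5.52 in PI WT. In KO the values were 4.70, 4.82 and 4.89 in CL and 5.18, 5.23 and 5.27 in PI. PI libraries were the high ones with no overlap in either genotype. The log2 fold change of 0.43 in WT (SE 0.08, 95% interval 0.26 to 0.61, adjusted p = 0.00437) and of 0.42 in KO (SE 0.09, interval 0.23 to 0.61, adjusted p = 0.00907) passed the test. The interaction was -0.01 (SE 0.12, interval -0.26 to 0.24, adjusted p = 0.998).

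Junb, often a weaker activator that can restrain JUN, had 3.99, 4.23 and 4.45 log2 CPM in CL WT and 4.06, 4.14 and 4.19 in PI WT, a narrower range inside that of CL. In KO it had 4.63, 4.68 and 4.94 in CL and 4.34, 4.50 and 4.59 in PI, with no overlap. Its log2 fold change was -0.09 (SE 0.14, adjusted p = 0.748) in WT and -0.27 (SE 0.13, adjusted p = 0.218) in KO. Neither passed the test. Jund, the steadily made JUN subunit, ranged from 4.67 to 4.78 in CL WT and 4.67 to 4.80 in PI WT, and in KO from 4.58 to 4.91 for CL and 4.55 to 4.75 for PI. Its log2 fold change was 0.01 (SE 0.08, 95% interval -0.16 to 0.17) in WT and -0.09 (SE 0.12, interval -0.35 to 0.17) in KO.

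**Figure D1:**
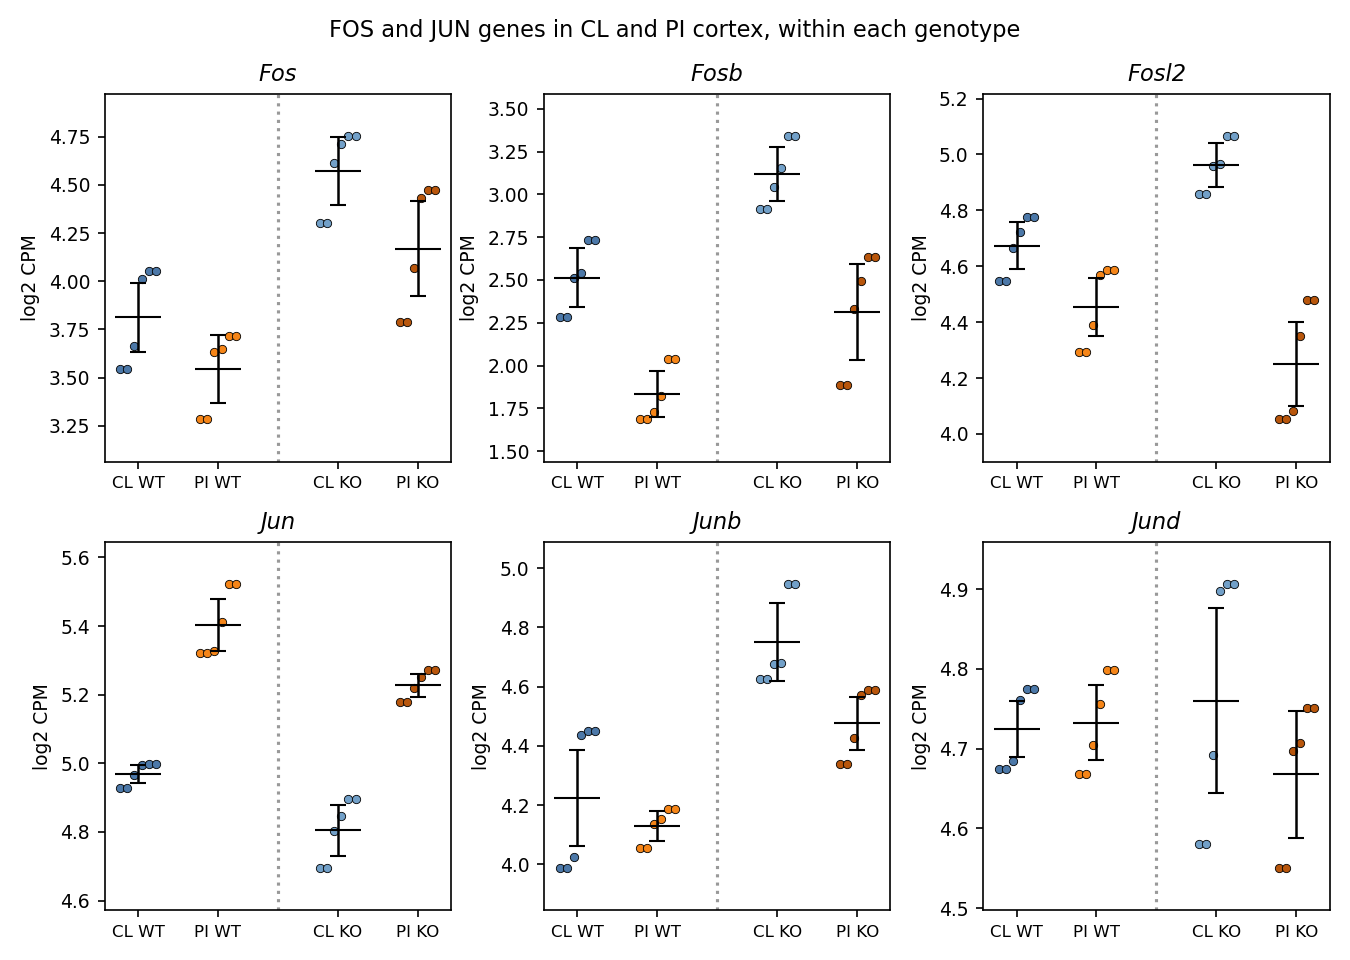
Deposited log2 CPM of each FOS and JUN gene (vertical axis, scaled per gene) in the 6 libraries of each group, with horizontal bars for the trimmed mean and whiskers for its SE; the dotted line separates the 2 tables, which were scaled separately. Jun lies higher in PI in both genotypes and Fosb lower, Fosl2 separates in KO, and Jund overlaps throughout.

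The interaction was called for 0 of 6 genes and for 0 of 14211 genes in all (percent called 0), where 646 genes, 4.55%, passed an unadjusted p of 0.05. Limma on the drawn-in values, whose spread is too small, called 1 of the 6, Fosl2, with an adjusted p of 0.00428, and 13.7% of all genes. Fos, Fosb, Junb and Jund had interactions of -0.14, -0.13, -0.18 and -0.10 with SEs of 0.32, 0.34, 0.20 and 0.15.

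Between genotypes, 0 of 6 genes were called by the moderated trimmed-mean test in CL, where 0.0279% of all genes were called, and 0 of 6 in PI, where 0.0208% were. At an unadjusted p under 0.05 there were 4 of 6 in CL, all higher in KO, against 3.16% of all genes higher, and 2 of 6 in PI, both higher in KO, against 2.8%. Limma on the drawn-in values, whose spread is too small, called 5 in CL, against 16.1% of all genes, and 4 in PI, against 16.5%. The median log2 fold change of KO against WT was 0.42 over the 6 genes in CL and 0.15 in PI, against -0.00204 and -0.00485 over all genes. These comparisons use the same libraries as those of PI with CL, in tables scaled anew, so the values stand side by side and do not add support to each other.

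In the CL table Fos had 3.51, 3.80 and 4.02 log2 CPM in WT and 4.28, 4.64 and 4.73 in KO. In the PI table it had 3.31, 3.67 and 3.75 in WT and 3.82, 4.28 and 4.51 in KO. KO libraries were the high ones and the ranges did not overlap in either. The log2 fold change of Fos was 0.77 in CL (SE 0.19, 95% interval 0.36 to 1.17, unadjusted p = 0.00127, adjusted p = 0.490) and 0.63 in PI (SE 0.23, interval 0.13 to 1.12, unadjusted p = 0.0170, adjusted p = 0.854). Among all genes the change of Fos was at percentile 99.5 in CL and 99.4 in PI, and in CL it ranked 37 by p.

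Fosb had 2.25, 2.49 and 2.70 log2 CPM in CL WT and 2.89, 3.07 and 3.32 in CL KO, with no overlap, and 1.72, 1.80 and 2.07 in PI WT and 1.92, 2.45 and 2.67 in PI KO, with overlap. Its log2 fold change of KO against WT was 0.61 in CL (SE 0.20, unadjusted p = 0.00808, adjusted p = 0.688) and 0.48 in PI (SE 0.26, unadjusted p = 0.0910, adjusted p = 0.854). Fosl2 differed in sign between the tissue samples. In CL it was 4.51, 4.66 and 4.74 in WT and 4.83, 4.93 and 5.04 in KO (log2 fold change 0.30, SE 0.10, unadjusted p = 0.0132, adjusted p = 0.781), with no overlap. In PI it was 4.32, 4.51 and 4.62 in WT and 4.09, 4.25 and 4.51 in KO (log2 fold change -0.20, SE 0.15, adjusted p = 0.889), with overlap. The test of that difference is the interaction given above for Fosl2.

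Junb had 3.95, 4.20 and 4.42 log2 CPM in CL WT and 4.60, 4.65 and 4.92 in CL KO. In PI it had 4.08, 4.17 and 4.21 in WT and 4.37, 4.53 and 4.62 in KO. KO libraries were high without overlap in both tissue samples. The log2 fold change of Junb was 0.53 in CL (SE 0.16, unadjusted p = 0.00547, adjusted p = 0.638) and 0.35 in PI (SE 0.10, unadjusted p = 0.00488, adjusted p = 0.768). Jun went the other way, with 4.89, 4.95 and 4.96 in CL WT against 4.67, 4.80 and 4.87 in CL KO, and 5.35, 5.40 and 5.55 in PI WT against 5.21, 5.27 and 5.30 in PI KO. The ranges of Jun did not overlap, yet the differences were small, at -0.16 in CL (SE 0.08, adjusted p = 0.878) and -0.17 in PI (SE 0.08, adjusted p = 0.854). Jund overlapped in both, with differences of 0.04 (SE 0.11) in CL and -0.06 (SE 0.10) in PI.

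**Figure D2:**
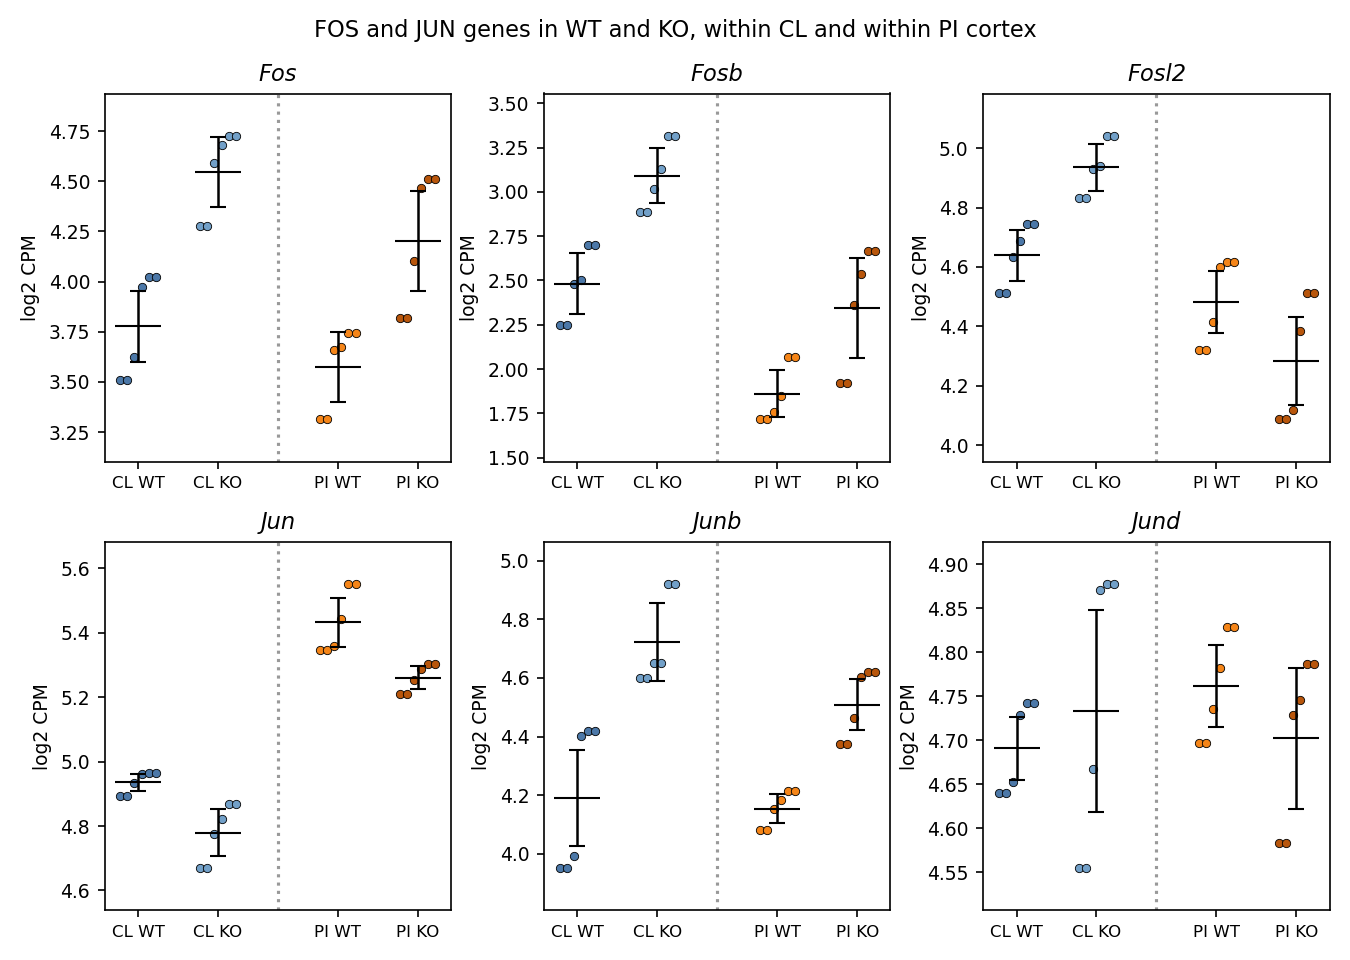
Deposited log2 CPM of each gene (vertical axis, scaled per gene) in the 6 libraries of CL WT, CL KO, PI WT and PI KO, with the trimmed mean and its SE; the dotted line separates the 2 tables. Fos and Junb lie higher in KO in both tissue samples with no overlap of the quartile ranges, and no gene was called.

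**Figure D3:**
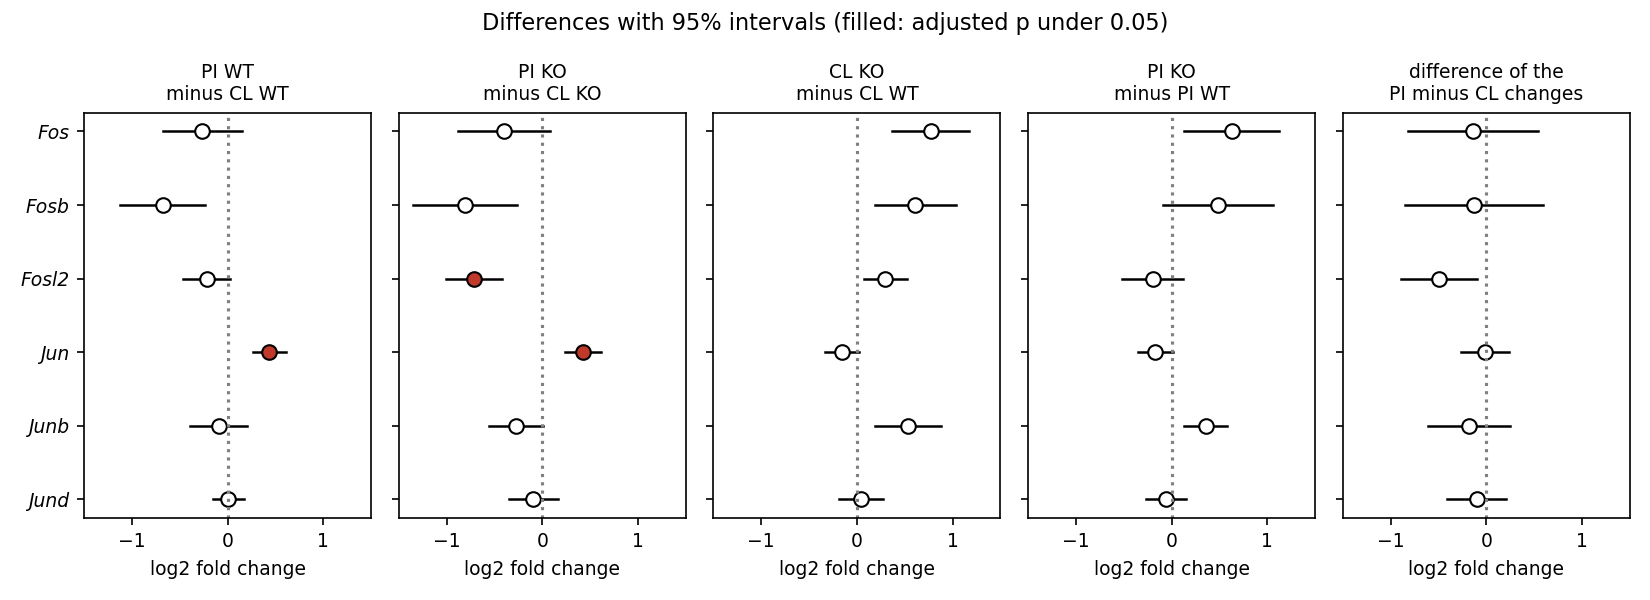
Log2 fold changes (horizontal axis) with 95% intervals for the 4 comparisons and for the difference of the PI minus CL changes between KO and WT; filled points passed the test. Jun is filled in both comparisons of PI with CL and Fosl2 in KO.

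Ranges that did not overlap were seen for 2 of 6 genes between PI and CL in WT (Fosb and Jun) and for 4 of 6 in KO (Fosb, Fosl2, Jun and Junb). Over all genes, 16.5% lay wholly higher and 16.3% wholly lower in PI WT, and 17.1% and 17.2% in PI KO. Between genotypes they did not overlap for 5 of 6 in CL, 4 higher and 1 lower in KO, against 6.7% and 6.77% of all genes. In PI there were 3 of 6, 2 higher and 1 lower, against 6.94% and 7.19%.

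**Figure D4:**
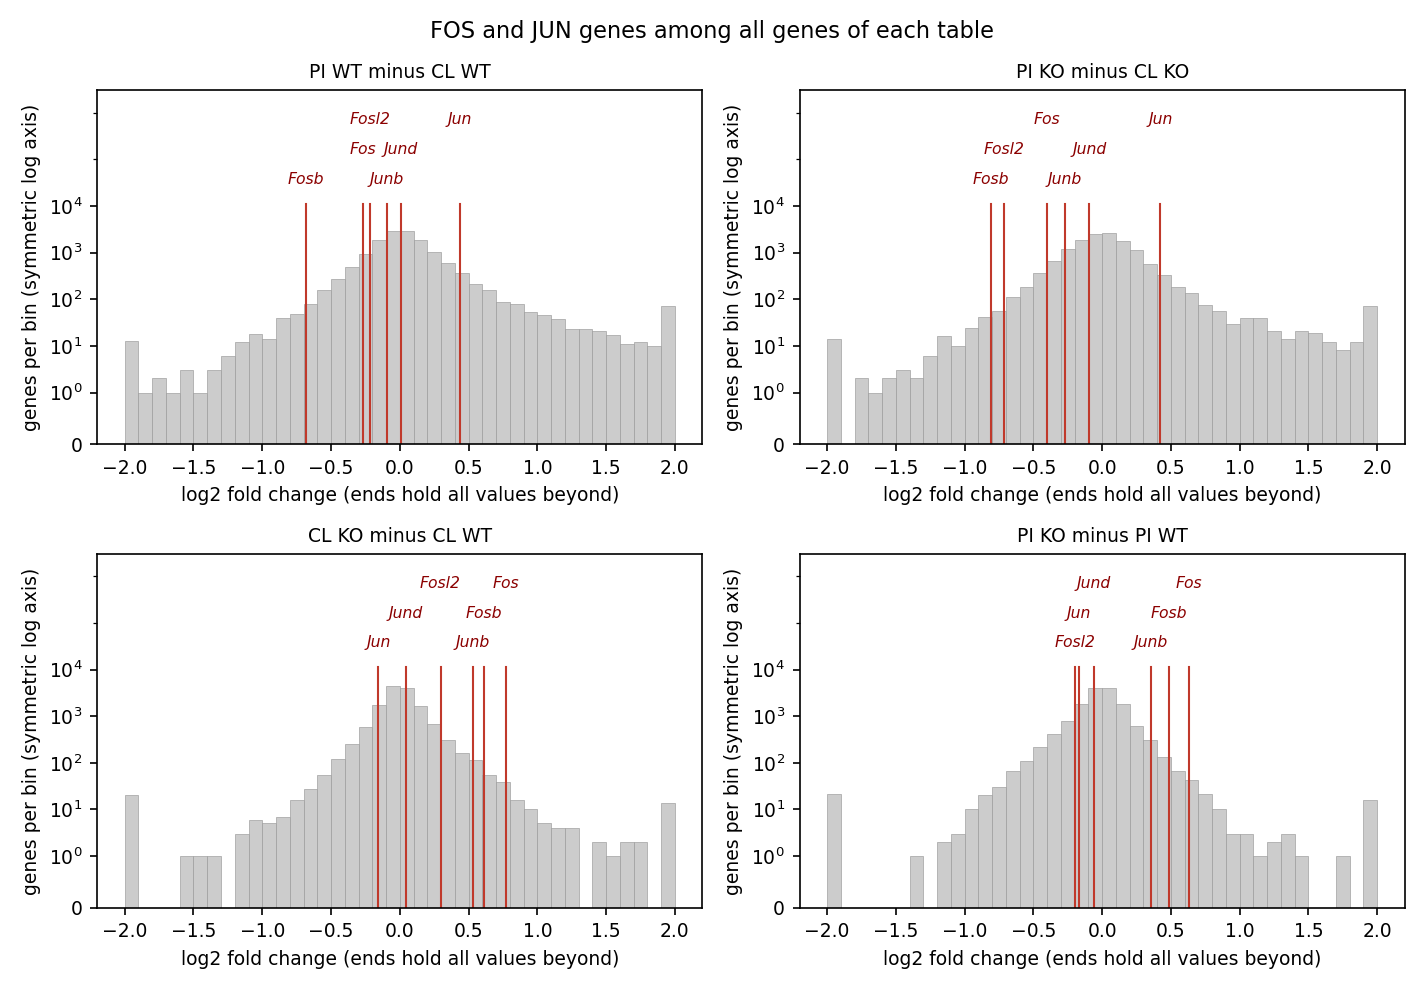
Histograms of the log2 fold changes of all genes of each table (grey, bins of 0.1, end bins holding all values beyond, symmetric log axis) with the FOS and JUN genes as red lines. Fos, Fosb and Junb lie in the right tail in both comparisons of KO with WT, at percentiles 97.1 to 99.5, and Fosb in the left tail between PI and CL, at percentiles 0.823 and 1.19.

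Among 15 relatives that can pair with FOS or JUN proteins or share their sites, 8 were listed in the tables of PI and CL. Jdp2, a repressor that pairs with JUN, fell in PI WT (log2 fold change -0.57, SE 0.11, adjusted p = 0.00502) and was the only relative called there. In KO it had -0.31 (SE 0.13, adjusted p = 0.158), and 0 relatives were called, while 4 of 8 had an unadjusted p under 0.05, against 24.9% of all genes. Of these, the small MAF protein gene Maff had 0.98 (SE 0.35, adjusted p = 0.103) and Maf -0.25 (SE 0.09, adjusted p = 0.0979). Fosl1, Batf, Batf2 and Batf3 were searched but not listed in any comparison.

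Among 28 kinases and factors upstream of AP-1, all listed, 1 rose and 4 fell in PI WT, and 1 rose and 1 fell in PI KO, against 10.6% of all genes called in WT and 10% in KO. The same shares stand beside the counts of the other lists between PI and CL. Elk1, a partner of SRF at the Fos promoter, rose in WT (0.30, SE 0.09, adjusted p = 0.0457), and in KO it had 0.13 (adjusted p = 0.520). Mapk10, the neuronal JNK kinase that phosphorylates JUN, fell in both (-0.18, SE 0.05, adjusted p = 0.0398 in WT and -0.24, SE 0.06, adjusted p = 0.0212 in KO). Map2k4, a kinase that activates JNK, fell in WT by 0.17 on the log2 scale (adjusted p = 0.0281) and Mef2c, an activity-dependent neuronal factor, by 0.29 (adjusted p = 0.0139). In KO they had -0.12 (adjusted p = 0.144) and -0.21 (adjusted p = 0.0743). Crem, a relative of CREB, rose in KO (0.40, SE 0.10, adjusted p = 0.0254), and in WT it had 0.22 (adjusted p = 0.0891). The list's median log2 fold change was -0.05 in WT and -0.07 in KO.

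Of 7 genes for the turnover of FOS and JUN products, 2 were called in each genotype. Zfp36, whose protein tristetraprolin destabilises short-lived messages, rose in PI by 1.36 in WT and 1.498 in KO on the log2 scale (SE 0.30 in both, adjusted p = 0.0123 and 0.00847). In CL Zfp36 stood low, at -0.21 log2 CPM in WT and 0.34 in KO, so counting error weighs on its change. Fbxw7, which marks JUN protein for degradation, was at -0.22 in both genotypes and called in both (adjusted p = 0.0363 in WT and 0.0337 in KO).

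Of 27 described AP-1 target genes, 18 were listed between PI and CL; 5 rose and 1 fell in WT, and 6 rose and 1 fell in KO. Hmox1, the haem-degrading enzyme, rose by 2.78 in WT and 2.76 in KO on the log2 scale, and Timp1, an inhibitor of matrix proteases, by 2.71 and 2.59. In CL both were low, Hmox1 at 0.91 log2 CPM in WT and 0.88 in KO, and Timp1 at -0.19 and 0.44. The hyaluronan receptor gene Cd44 rose by 2.36 (SE 0.16) in WT and 1.63 (SE 0.30) in KO. Ccnd1, cyclin D1, rose by 0.64 (SE 0.12) in WT and 0.61 (SE 0.09) in KO. The list's median was 0.14 in WT and 0.18 in KO. These genes have many other regulators.

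The 20 other immediate early genes were all listed between PI and CL. In WT 4 rose and 8 fell in PI, with a median log2 fold change of -0.46, and in KO 2 rose and 6 fell, with a median of -0.49. Egr1, a zinc finger factor induced with Fos, fell by 1.08 in WT, and in KO it had -1.19 with an adjusted p of 0.0560. Its relative Egr2 fell by 1.995 in KO, and in WT it had -1.03 with an adjusted p of 0.0700. The nuclear receptor gene Nr4a2 was called in both genotypes, at -1.56 in WT and -1.24 in KO, and so were Nr4a1, at -0.85 and -1.14, and the synaptic scaffold gene Homer1, at -0.62 and -0.60. Nptx2, a secreted synaptic pentraxin, rose by 1.19 in WT and 1.04 in KO. Between genotypes in CL 18 of 20 stood above 0 in KO, against 49.2% of all genes, with a median of 0.42, the same 0.42 as the 6 FOS and JUN genes, and 14 had an unadjusted p under 0.05, against 5.73% of all genes, but 0 were called. Egr1 had the smallest p of the list (0.51, SE 0.09, adjusted p = 0.197). In PI 15 of the 19 listed stood above 0, against 48.5% of all genes, with a median of 0.24, and 0 were called. The lists were chosen with earlier results of these data known.

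Between genotypes the moderated trimmed-mean test called 0 genes of these lists, and the genes with the smallest p are named with their log2 fold changes of KO against WT. The counts at an unadjusted p under 0.05 stand against 5.73% of all genes in CL and 5.75% in PI. Among upstream genes 3 of 28 passed that limit in CL and 0 in PI. Mapk3, the kinase ERK1, was at 0.34 (SE 0.10) and Srf at 0.32 (SE 0.12) in CL, and Srf at 0.23 (SE 0.11) and its cofactor gene Mrtfa at -0.18 (SE 0.11) in PI. Among relatives 1 of 8 passed that unadjusted limit in CL, Mafk at -0.64 (SE 0.28), and 0 of 9 in PI. Among turnover genes 1 of 6 did in CL, Zfp36l2 at 0.25 (SE 0.10), and 1 of 7 in PI, Zfp36 at 0.69 (SE 0.27). Among targets 2 of 16 did in CL, Ccnd1 at 0.28 (SE 0.08) and the opioid precursor gene Pdyn at -0.28 (SE 0.12), and 2 of 20 in PI, the neurotrophin gene Bdnf at 0.48 (SE 0.17) and Timp1 at 0.52 (SE 0.23). The medians of the targets were -0.01 in CL and -0.02 in PI.

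**Figure D5:**
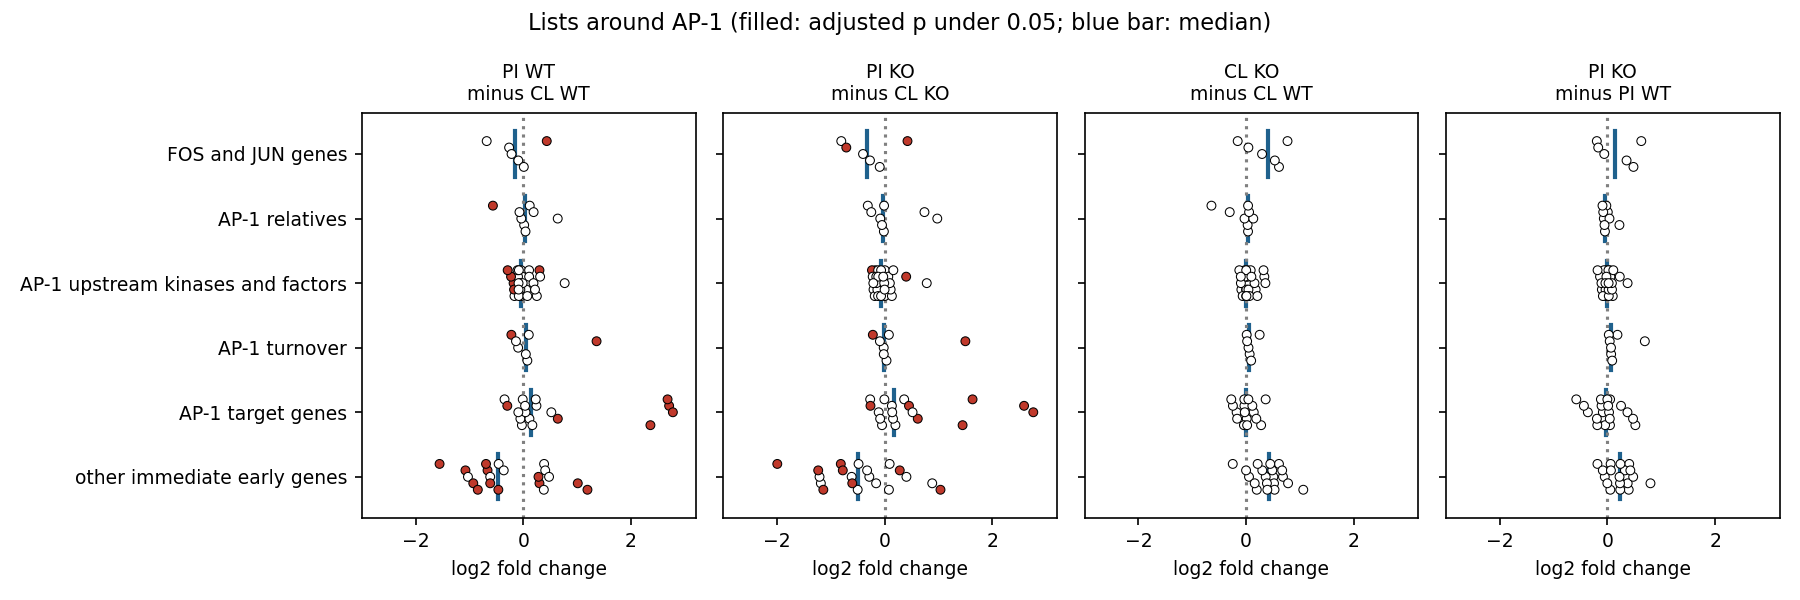
Log2 fold change (horizontal axis) of the FOS and JUN genes and of 5 lists around AP-1 in the 4 comparisons; each point is a gene, filled where it passed the test, and blue bars are medians. Of the 20 other immediate early genes, 12 in WT and 14 in KO lie left of 0 between PI and CL, 18 lie right of 0 between KO and WT in CL, and no point is filled between genotypes.

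Markers of several cell types also differed between PI and CL. Each sum adds the drawn-in values of a library as CPM, and its range runs from the lowest to the highest library. These ranges are not quartiles, and drawing in the values of each gene may have made them too narrow. The 12 microglia markers summed to 225 to 242 CPM in CL WT and 264 to 297 in PI WT, and to between 241 and 260.5 in CL KO and between 301 and 353 in PI KO. In each genotype 7 rose and 1 fell, among them Itgam, the integrin CD11b, by 1.08 in WT and 0.95 in KO on the log2 scale. The 14 neuron markers summed to 10659 to 11298 CPM in CL WT and 9268 to 10102 in PI WT, and to between 10699 and 11045 in CL KO and between 8946 and 9822 in PI KO. Of these, 4 fell in WT and 5 fell and 1 rose in KO, with Camk2a, an excitatory synaptic kinase, lower by 0.44 and 0.59. The 10 oligodendrocyte markers summed to 2307 to 2520 CPM in CL WT and 1628 to 2272 in PI WT, with 2 called, and overlapped in KO, at 1833 to 2496 in CL and 1796 to 2028 in PI. The 10 astrocyte markers summed to 7801 to 8192 in CL WT and 6802 to 7208 in PI WT, and to between 7803 and 8327 in CL KO and between 6588 and 7293 in PI KO. Of these, 1 rose and 3 fell in WT, and 1 rose and 1 fell in KO. Most of the sum in WT came from Slc1a2, at 12.7 log2 CPM in CL and 12.5 in PI, which fell by 0.23. The sum therefore says little about the other astrocyte markers. Aqp4, the water channel of astrocyte endfeet, rose by 0.27 in WT and 0.41 in KO, and Gja1, the gap junction protein connexin 43, fell by 0.35 and 0.43. The sums of the 10 endothelium markers overlapped in both genotypes. In WT 0 of these were called, with a median log2 fold change of 0.27. In KO 2 fell, Slco1a4 by 0.48 and Abcb1a by 0.37 on the log2 scale, while the median was 0.06. Of 8 markers of upper and deep cortical layers 1 fell in each genotype. Of 10 striatum markers 7 were listed, with sums of 223 to 285 CPM in CL WT and 177 to 215 in PI WT, and of 10 choroid plexus markers 2 were, at 4.07 to 6.83 CPM in WT. Of 12 neutrophil and monocyte markers 1 was listed, at 1.33 to 1.69 CPM in WT. The part of these shifts in the changes of the FOS and JUN genes was not tested.

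Between genotypes 0 markers of any of the 9 cell type and region lists were called. The 14 neuron markers had a median difference of -0.0021 in CL and 0.00288 in PI. Of the 12 microglia markers 11 stood above 0 in both, against 49.2% of all genes in CL and 48.5% in PI, with medians of 0.17 and 0.19. An unadjusted p under 0.05 was reached by 1 in CL and 4 in PI, against 5.73% and 5.75% of all genes. Their sum was 220 to 237 CPM in CL WT and 237 to 256 in CL KO, ranges that met, and 269 to 303 CPM in PI WT and 308 to 361 in PI KO, with no overlap. These ranges are of summed drawn-in values, as above, and may be too narrow. Of the 10 oligodendrocyte markers 0 stood above 0 in CL, against 49.2% of all genes, with a median of -0.15. In PI it was the other way, with 8 of 10 above 0, against 48.5%, and a median of 0.06. The part of these marker differences in the levels of Fos, Fosb and Junb was not tested.

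Over the 24 libraries, each gene centred on its mean within a table of PI and CL, the 3 genes whose profile was most like each FOS or JUN gene among 13517 were listed by Pearson r, as a description, since the libraries share animals and the contrast of PI with CL. Jun lay closest to Cflar, an inhibitor of death receptor signalling (r = 0.974), Lcp1, an actin bundler of leukocytes (0.969), and Ctsc, a lysosomal protease (0.967). Lcp1 and Ctsc were higher in PI by 1.59 and 1.55 in WT on the log2 scale, and Jun by 0.43. Fosb lay closest to Ptch1, the hedgehog receptor (0.930), Tle5 (0.929) and Peg13 (0.929), and Fosl2 to Gm37593 (0.927), Ankrd10 (0.915) and Iqgap2 (0.908). Fos lay closest to Pcdhgb1 (0.846), the immediate early gene Nr4a3 (0.839) and the serine synthesis enzyme Phgdh (0.835). Junb lay closest to Dffa (0.855), Kcnab2 (0.853) and Mtg1 (0.837), and Jund to Etv6 (0.768), Gtf2ird2 (0.715) and Tbc1d22b (0.711), the weakest likeness of the 6.

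Among the 6 genes themselves, Fosb and Fosl2 had the highest r (0.725), followed by Fos with Fosl2 (0.679) and Fos with Junb (0.612). Many genes outside the family lay closer: 1121 were more like Fosb than Fosl2 was. For Fos, 169 were more like it than Fosl2 and 542 more than Junb. Jun had a negative r with each of the others, from -0.829 with Fosb to -0.188 with Jund. Jund had r between 0.118 and 0.359 with Fos, Fosb, Fosl2 and Junb. These coefficients hold the shift between PI and CL that all libraries share, and drawn-in values that tie libraries within a group.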

How the data were processed

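Per the labels' protocols, TRIzol-extracted RNA went through RiboCop depletion and the CORALL total RNA kit. The deposited values are log2 CPM per gene in 4 tables of 12 columns, scaled separately by the authors, so tests were made within a table. The build is mm10, per the submitters' processing notes. The aligner, counting, annotation and filter are not given in the sources used here. Samples were grouped by title, and 0 columns were left unused.

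In 100% of genes the 2 lowest and the 2 highest deposited log2 values of a group of 6 were tied, at the quartiles (weights 0.75 and 0.25 on the 2 nearest values). Solving for the 4 inner values made 69.2% to 87.7% of low tied values whole reads, within 0.03 read, against 8.55% to 14.0% as deposited. Their mean was tested with the Winsorized sum of squares as error, moderated by limma 3.58.1 (R 4.3.3) with a trend, two-sided, adjusted by Benjamini-Hochberg over all genes. The method was tested on simulated data, with levels and spreads taken from PI WT and CL WT. It recovered 57.1% of changes of 0.5 on the log2 scale and 83.4% of changes of 1. Of its calls 7.08% were false. A gene that was not called may therefore still differ. No count test was run, since 4 of 6 values are not reads, and depth covers counting error only.

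The FOS and JUN genes were named in every comparison, and from each pathway list up to 4 called genes with the smallest p, or the 2 with the smallest p where none was called. 1 named gene of the AP-1 target list is not reported here. From marker lists the called genes were limited to 3, and for likeness the 3 genes with the highest r were taken. Members and lists were chosen with earlier results of these data known. By the labels each animal gave both a CL and a PI library, which pairs them. Deviations of CL and PI libraries from their group means were correlated within and between animals. In KO r was -0.04 to 0.17 (median 0.07) within an animal and -0.25 to 0.21 (median -0.02) between animals. In WT r was -0.01 to 0.18 (median 0.07) within an animal and -0.19 to 0.13 (median -0.03) between animals. The ranges overlapped in both genotypes. Libraries of a group are separate animals.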

Additional observations from a re-analysis of the deposited data

How the results depend on the processing

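Of 210 values of the FOS and JUN genes under alternatives, 173 kept their direction and side of the threshold, 34 newly passed it, 0 lost a call and 3 changed sign, all near 0. The latter were Jund in WT after centring on the median gene (-0.00205) and, with group medians, the interactions of Fosb (0.0679) and Jun (0.0222). Most newly passing values came from limma on the deposited values, whose spread is too small: 15 as it stands, 9 with library weights and 6 with the animal as block. The rest were all Fosb between PI and CL in WT. Jun was called in both genotypes and Fosl2 in KO under every alternative run, with adjusted p up to 0.0230, 0.0337 and 0.0391. In PI against CL of WT the count of called members went from 1 to 2 with medians, on log2(CPM + 1), among genes of at least 1 CPM and after centring. Limma on the deposited values, whose spread had been narrowed, called 3 members in WT, 5 in KO, 4 for KO against WT in PI, 5 in CL and 1 for the interaction, and 6459, 6666, 2388, 2311 and 1940 of all genes. With library weights it called 4 members and 2478 genes in PI and 5 and 2322 in CL. Without a trend in the prior variance the calls over all genes were 1015 in WT and 739 in KO, against 1537 and 1440.

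The replicate block for the animal could be fitted on the deposited values only. It called 3 members in WT, 5 in KO and 1 for the interaction, the same members as limma without the block, and 6614, 6759 and 2216 of all genes. The block thus changed no call of a member on the deposited values. What pairing would do to the moderated trimmed-mean test is not known, since that test took CL and PI libraries as independent. KO and WT are different animals, so no pairing applies between them. Leaving out a library, such as the shallow CL KO replicate 6, was not run, because each deposited value at a quartile holds those of other libraries. Fosb rests on 20.03 to 105 reads per library, the fewest of the 6 genes.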
